A study of Drosophila melanogaster with 30 samples.

Results

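The genes E(z), esc, Su(z)12, Pc, trx, ash1, Set1 and Set2 encode Polycomb and trithorax group proteins and related enzymes that write or read methyl marks on histone H3 in Drosophila melanogaster. They were taken from the count table by name, and all 8 were found among its 17559 genes and were among the 11457 genes with enough counts to be tested. Nuclear RNA had been sequenced in 30 libraries, 3 in each of 10 groups, from FLAG-tagged nuclei that were pulled out of crosslinked heads and that the labels assign to the mushroom body, the memory centre of the fly brain. The groups are activated and naive flies of the line MB477 with RNA interference (RNAi) against Kdm4B, of MB477 without RNAi, of MB131 with the same RNAi, of MB131 without RNAi, and of flies that lack CsChrimson. CsChrimson is a light-gated cation channel. Activated flies had 5 min of red light and 10 min of rest, and naive flies were not activated. The labels give the strain as CS10 for 29 libraries and name none for 1 MB477 RNAi naive library. They do not name the line or driver of the flies without CsChrimson, and give neither ages nor which cells the MB477 and MB131 lines target. They do not say that replicates were separate batches of flies either, and p-values here rest on the variation among libraries, part or all of which can be technical. The title of the series gives the search for genes controlled by Kdm4B, a histone demethylase, as the aim.

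Polycomb and trithorax group proteins keep genes, the Hox genes above all, in the silent or active state they had earlier in development. E(z) is the methyltransferase of Polycomb repressive complex 2 and places methyl groups on lysine 27 of histone H3. Su(z)12 and esc are subunits that this enzyme needs, and Pc belongs to Polycomb repressive complex 1 and binds the mark through its chromodomain. The proteins trx and Set1 are methyltransferases of lysine 4 in separate COMPASS-type complexes, and Set1 makes most of the trimethyl mark found at active promoters. Set2 places trimethyl groups on lysine 36 along transcribed genes. The protein ash1 is a trithorax group enzyme that also methylates lysine 36 and opposes Polycomb silencing. In neurons such marks are studied as part of the machinery that sets which genes can respond to activity.

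Libraries held 8291599 to 14344348 counts. The 3 MB477 naive libraries stood apart from the rest, at 64.2 to 68.0 on the first principal component against -25.5 to 22.9 for the other 27, so results that rest on them are named as such. In these 3 libraries the summed level of 12 Kenyon cell markers (Kenyon cells are the intrinsic neurons of the mushroom body) was 3203 to 3299 CPM, read counts scaled to a fixed library size, against 4606 to 4774 CPM in MB477 RNAi naive and 5030 to 5268 CPM in MB131 naive libraries. The summed level of 7 muscle markers was 5216 to 5301 CPM there, against 2937 to 3006 CPM in MB477 RNAi naive and 3721 to 4002 CPM in MB131 naive libraries. The sum of 6 general neuron markers was not lower there, at 5706 to 6152 CPM against 5310 to 5494 and 5451 to 5904 CPM in the same order. The sum of 7 glia markers was lower, at 2203 to 2323 CPM against 2666 to 2717 and 2762 to 2770 CPM. That of 8 photoreceptor markers was lower too, at 10401 to 10509 CPM against 16405 to 16576 and 15117 to 15643 CPM. Not all of these shifts were confined to the naive libraries of MB477 without RNAi. In its activated libraries the Kenyon cell sum was 3096 to 3280 CPM and the muscle sum 4709 to 4743 CPM. The glia sum was 2613 to 2721 CPM in them, the photoreceptor sum 21899 to 22069 CPM and the general neuron sum 4953 to 5184 CPM. None of these markers was at 0 in all libraries, and 8 photoreceptor markers summed to 10401 CPM or more in every group, so markers of other head cells were present throughout. In a bulk sample, fewer cells of a type and less RNA per cell cannot be told apart. Kdm4B, the target of the RNAi, had 2 to 26 counts per library and did not pass the test in any of the 4 RNAi comparisons, so its RNA does not check the RNAi labels at this depth.

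All 8 genes were detected in every library, with 59 to 197 counts for esc and 1128 to 2504 counts for Set1 as the extremes. On the dm6 assembly E(z) lies on chromosome 3L at 10634575 to 10638130, Su(z)12 at 19918242 to 19923462, Pc at 21306138 to 21318020 and ash1 at 19590773 to 19598755, all on the minus strand of that arm. Set1 lies on the plus strand of 3L at 25107594 to 25115180, trx on the minus strand of 3R at 14263358 to 14286903, esc on the minus strand of 2L at 11827204 to 11829405 and Set2 on the plus strand of the X at 13413242 to 13421024. Exons of trx share 570 bases with asRNA:CR46020 on the other strand, those of Set1 share 257 with MED21, those of Pc share 60 with CG7632 and those of E(z) share 38 with CG34001. The sources used here do not say whether counting used strand, and reads from these stretches cannot be assigned to 1 gene. The gene esc lies within the span of Pde1c on the same strand, with 0 exon bases shared. In nuclear RNA, reads of unspliced Pde1c RNA over esc exons could not be told from those of esc. Divided by exon length, the median level over the 30 libraries was highest for Set1 at 30.5 CPM per kb, followed by E(z) at 21.5, Su(z)12 at 18.2, trx at 10.9, Pc at 9.72, Set2 at 6.80, esc at 6.09 and ash1 at 5.84 CPM per kb. The 3 subunits of the E(z) complex were thus not equal in RNA, and esc had the lowest level of them per length.

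Over all 10 groups Set1 was the steadiest of the genes and Su(z)12 the most variable. The highest group mean exceeded the lowest by 2.87-fold for Su(z)12, 2.49-fold for trx, 2.20-fold for ash1, 2.16-fold for Pc, 1.87-fold for esc, 1.75-fold for E(z), 1.72-fold for Set2 and 1.21-fold for Set1. By the standard deviation of its 10 group means on the log2 scale, Set1 lay at percentile 3.63 among the genes tested, E(z) at 50.1 and Su(z)12 at 75.1. All 8 genes differed over the 10 groups (edgeR quasi-likelihood test, Benjamini-Hochberg adjusted p of 8.52e-06 or less), as did 81.5% of all genes tested. Without the MB477 naive libraries 7 of the 8 did, and Pc did not (adjusted p = 0.23). Among the 9 groups other than MB477 naive, the ratio of highest to lowest mean was 1.51-fold for Su(z)12, 1.30-fold for trx, 1.24-fold for Pc and 1.23-fold for ash1. For these 4 genes the spread over groups was thus much smaller without MB477 naive.

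**Figure D1:**
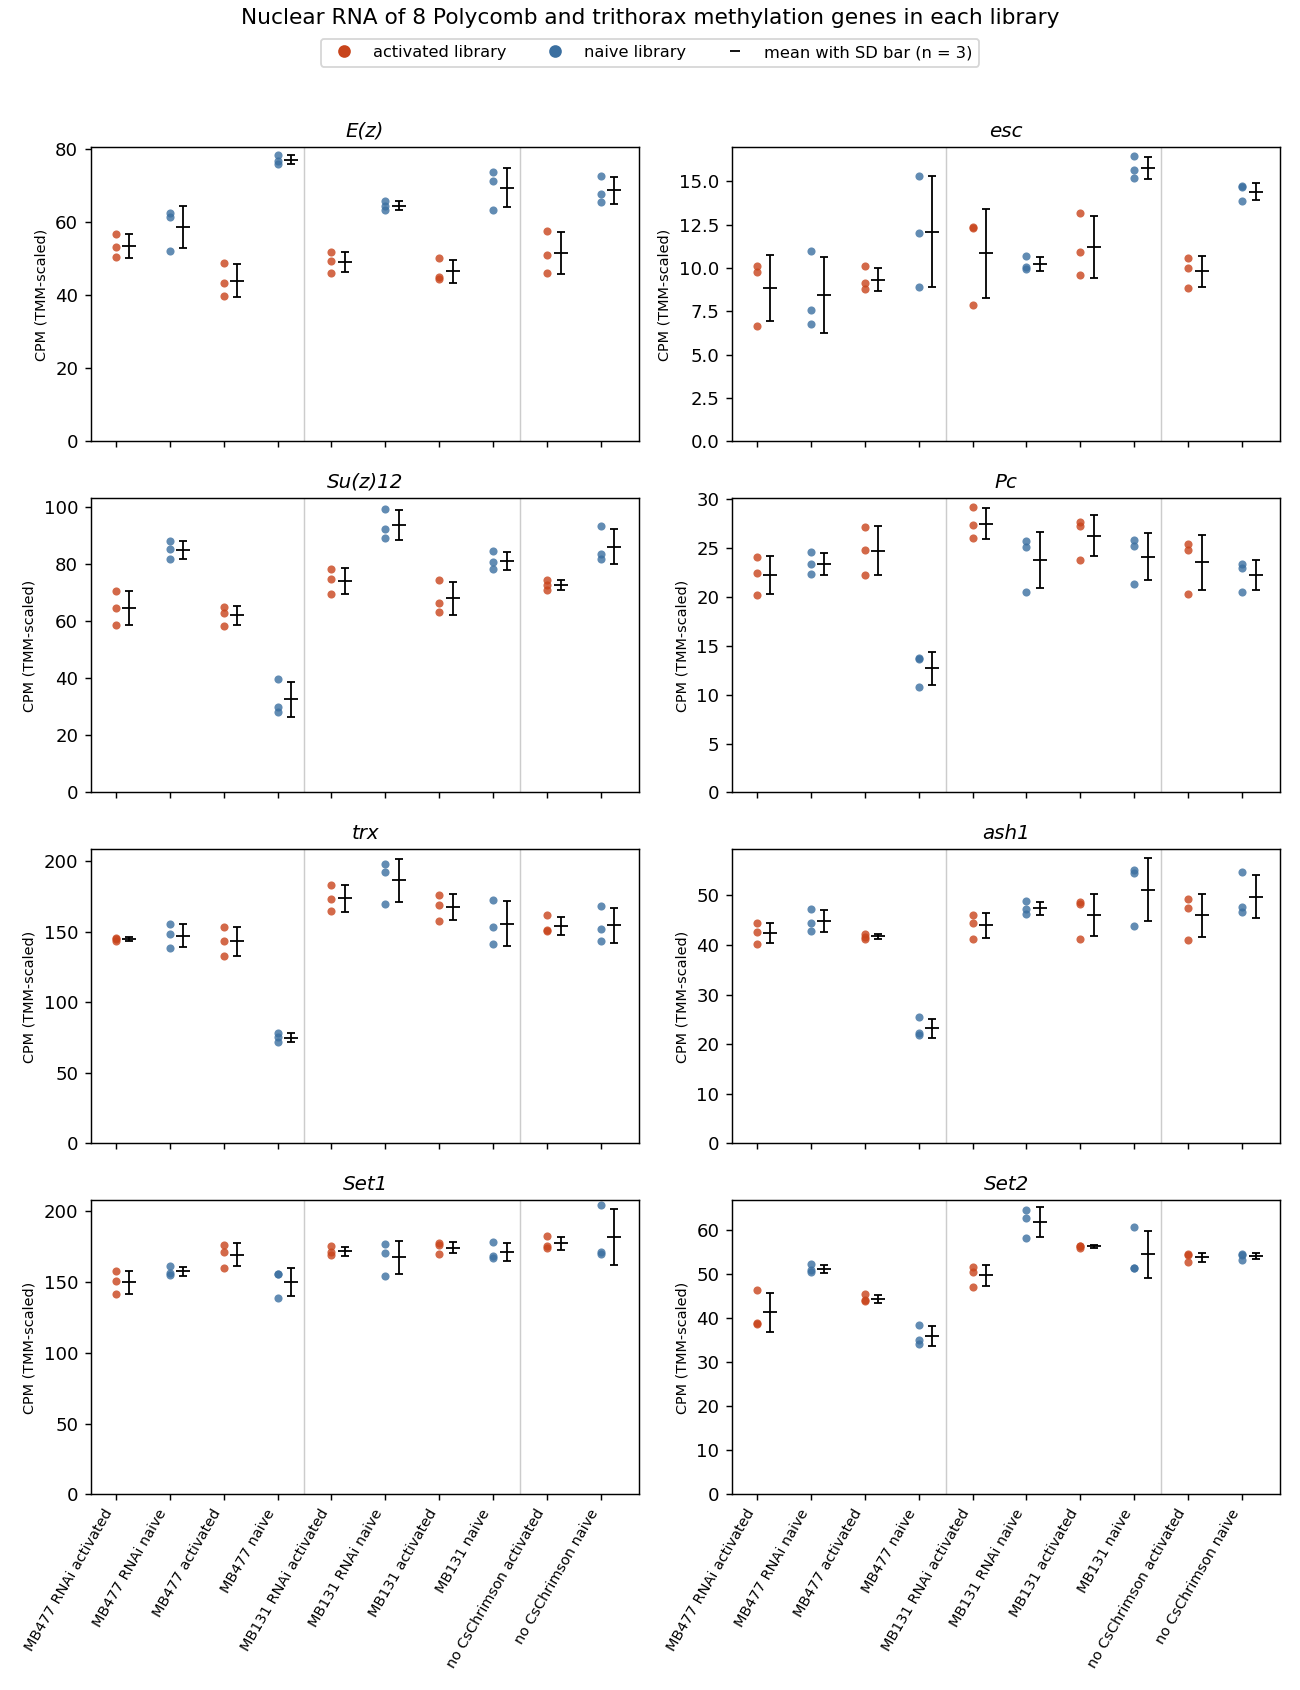
Level of each gene in CPM (vertical axes, from 0) in every library of the 10 groups (horizontal axis), with red points for activated and blue points for naive libraries and a black bar for the mean with its SD (n = 3). Su(z)12, Pc, trx, ash1 and Set2 have their lowest points in MB477 naive, E(z) has its highest points there, and Set1 hardly moves.

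The comparisons fall in 3 families, and the number of these genes past the test (adjusted p under 0.05) differed between comparisons within each family. With activation in MB131, 0 rose and 3 fell, where 24.5% of all genes changed (12.7% rose and 11.8% fell). In MB131 RNAi 0 rose and 3 fell, against a background of 26.8% (13.8% rose and 13% fell). In MB477 RNAi 0 rose and 2 fell, against 28.7% (15.6% and 13.1%). In flies without CsChrimson 0 rose and 3 fell, against 21% (11.1% and 9.98%). In MB477 without RNAi 6 rose and 1 fell, where 59.5% of all genes changed (31.8% rose and 27.7% fell). With all libraries kept, none of the 8 genes rose with activation outside MB477 without RNAi, where 11.1% to 15.6% of all genes did. For 8 genes a count of 0 is near such shares, and nothing particular to them is read from it.

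RNAi compared with none gave 1 higher and 1 lower in naive MB131, against 11% of all genes (4.92% higher and 6.12% lower). In activated MB131 it gave 0, against 11.5% (5.84% and 5.65%), where 1 of the 8 had an unadjusted p under 0.05 (Set2, 0.0298) and DESeq2 also called 0. In naive MB477 it gave 5 higher and 2 lower, against 61.1% (30.6% and 30.5%), and in activated MB477 1 higher and 1 lower, against 21.9% (11.9% and 10%). MB477 compared with MB131 gave 0 higher in all 4 comparisons. It gave 6 lower in naive flies, against 60.5% (29% higher and 31.6% lower), and 2 lower in activated flies, against 29.3% (14.4% and 14.8%). It gave 2 lower in naive RNAi flies, against 22.8% (11.2% and 11.6%), and 5 lower in activated RNAi flies, against 32.2% (16.6% and 15.6%). The last count dropped from 5 to between 2 and 4 when any 1 of the 6 libraries compared was left out. The 3 comparisons with 6 or 7 genes past the test are those that contain the MB477 naive libraries, in which most of all genes tested were past it too.

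**Figure D2:**
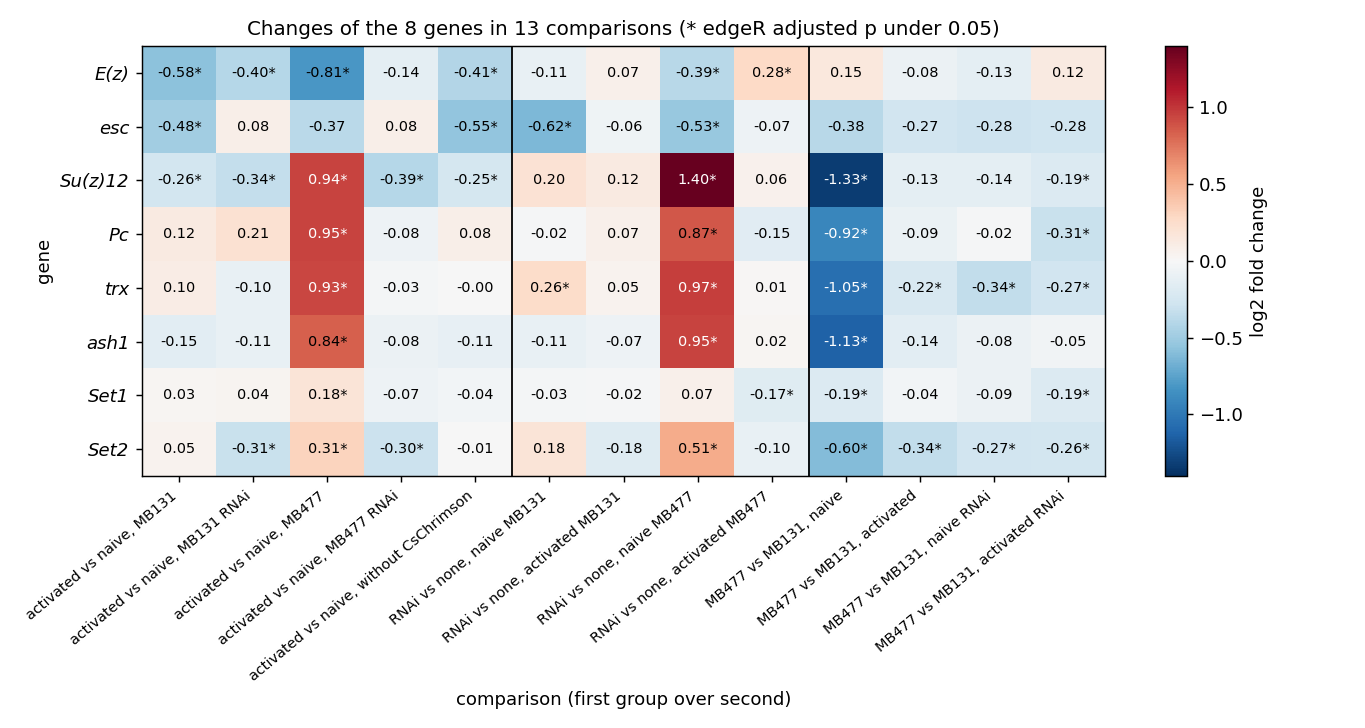
Log2 fold change of each gene (rows) in 13 comparisons (columns, first group over second), as colour and number, with an asterisk where the edgeR adjusted p is under 0.05. The 3 columns that contain MB477 naive hold the strongest colours, with the largest value, 1.4, for Su(z)12 with RNAi over none in naive MB477.

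E(z), the catalytic subunit, fell with activation in 4 of the 5 genotypes, flies without CsChrimson among them. In MB131 it had 45.0, 44.4 and 50.1 CPM in activated libraries, against 63.4, 71.1 and 73.8 CPM in naive libraries. The groups did not overlap, and the fall was 0.58 on the log2 scale (log2 fold change -0.58, SE 0.08, adjusted p = 7.87e-09). In MB131 RNAi it had 49.5, 51.8 and 46.1 CPM in activated against 63.3, 65.7 and 64.4 CPM in naive libraries, again without overlap (-0.40, SE 0.08, adjusted p = 4.3e-05). In flies without CsChrimson it had 57.7, 46.2 and 51.0 CPM in activated against 72.7, 65.6 and 67.8 CPM in naive libraries, and every activated library was below every naive one (-0.41, SE 0.08, adjusted p = 3e-05). The change in MB131 did not pass a test of its difference from that in flies without CsChrimson (difference -0.16, 95% interval -0.39 to 0.07, adjusted p = 0.523), so the light-gated channel was not shown to alter it there. The E(z) fall kept its direction and stayed past the threshold under every alternative run for these 3 genotypes.

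In MB477 E(z) had 48.8, 43.4 and 39.9 CPM in activated libraries and 76.0, 78.5 and 76.8 CPM in naive libraries, the steepest of the 5 changes in this gene (-0.81, SE 0.08, adjusted p = 2.66e-15). In MB477 RNAi it had 56.8, 50.4 and 53.2 CPM in activated and 61.5, 52.2 and 62.6 CPM in naive libraries. These overlapped, and the change of -0.14 did not pass (95% interval -0.30 to 0.02, adjusted p = 0.218). The change with activation in MB477 RNAi exceeded that in MB477 without RNAi by 0.67 (interaction, SE 0.12, adjusted p = 5.79e-07). Both sides of that difference are seen in the RNAi comparisons: E(z) was lower with RNAi than without in naive MB477 flies (-0.39, SE 0.08, adjusted p = 1.51e-05) and higher with RNAi in activated MB477 flies (0.28, adjusted p = 0.00928). The second of these calls was lost without MB477 activated replicate 3 (adjusted p = 0.11) or MB477 RNAi activated replicate 1 (adjusted p = 0.08). In naive libraries of MB477 every value of E(z) lay above all of the other 27 libraries, a position shared by 13.9% of all genes tested.

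Su(z)12, a subunit that E(z) needs for activity, fell with activation in MB477 RNAi, MB131 RNAi, MB131 and flies without CsChrimson, that is in every genotype but MB477 without RNAi. In MB477 RNAi it had 58.5, 64.6 and 70.6 CPM in activated libraries, against 85.3, 81.9 and 88.1 CPM in naive libraries (-0.39, SE 0.08, adjusted p = 2.23e-05). In MB131 RNAi the values were 74.8, 78.3 and 69.5 CPM in activated and 89.2, 92.5 and 99.4 CPM in naive libraries (-0.34, SE 0.07, adjusted p = 0.000155). Activated and naive libraries were fully separated in both RNAi genotypes. In MB131 it had 66.6, 74.5 and 63.3 CPM in activated and 84.6, 78.3 and 80.9 CPM in naive libraries (-0.26, SE 0.08, adjusted p = 0.00745), a call that was lost without MB131 activated replicate 3 (adjusted p = 0.095). In flies without CsChrimson it had 72.7, 70.8 and 74.4 CPM in activated and 93.3, 81.7 and 83.5 CPM in naive libraries (-0.25, SE 0.08, adjusted p = 0.0112), and that call was lost when naive replicate 1 was left out (-0.18, adjusted p = 0.13) and when activated replicate 2 was (adjusted p = 0.053).

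In MB477 the direction for Su(z)12 was the opposite. It had 58.3, 62.9 and 64.9 CPM in activated libraries and only 30.04, 28.03 and 39.7 CPM in naive libraries (0.94, SE 0.09, adjusted p = 1.31e-17). The activated values were close to those of the other activated groups, while the naive values were the lowest of all 30 libraries. RNAi compared with none in naive MB477 flies gave the largest change of any of the 8 genes in the 13 comparisons (1.4, SE 0.08, adjusted p = 2.09e-28), and naive MB477 compared with naive MB131 gave -1.33 (SE 0.08, adjusted p = 7.29e-27). In naive MB131 flies Su(z)12 was 0.20 higher with RNAi and narrowly missed the threshold (adjusted p = 0.0627). It passed under 4 of the 13 alternatives there.

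The ratio of E(z) to Su(z)12 counts is taken within a library and does not depend on how libraries are scaled. It was 2.53, 2.80 and 1.93 in the MB477 naive libraries, against 0.596 to 0.970 in the other 27. In that group E(z) was above and Su(z)12 below all of the other 27 libraries, positions held by 13.9% and 18.1% of all genes tested. The ratio therefore had to lie above the range of the 27, and its position is not a separate result. Among those 27, the activated MB477 libraries had ratios of 0.836, 0.691 and 0.615.

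**Figure D3:**
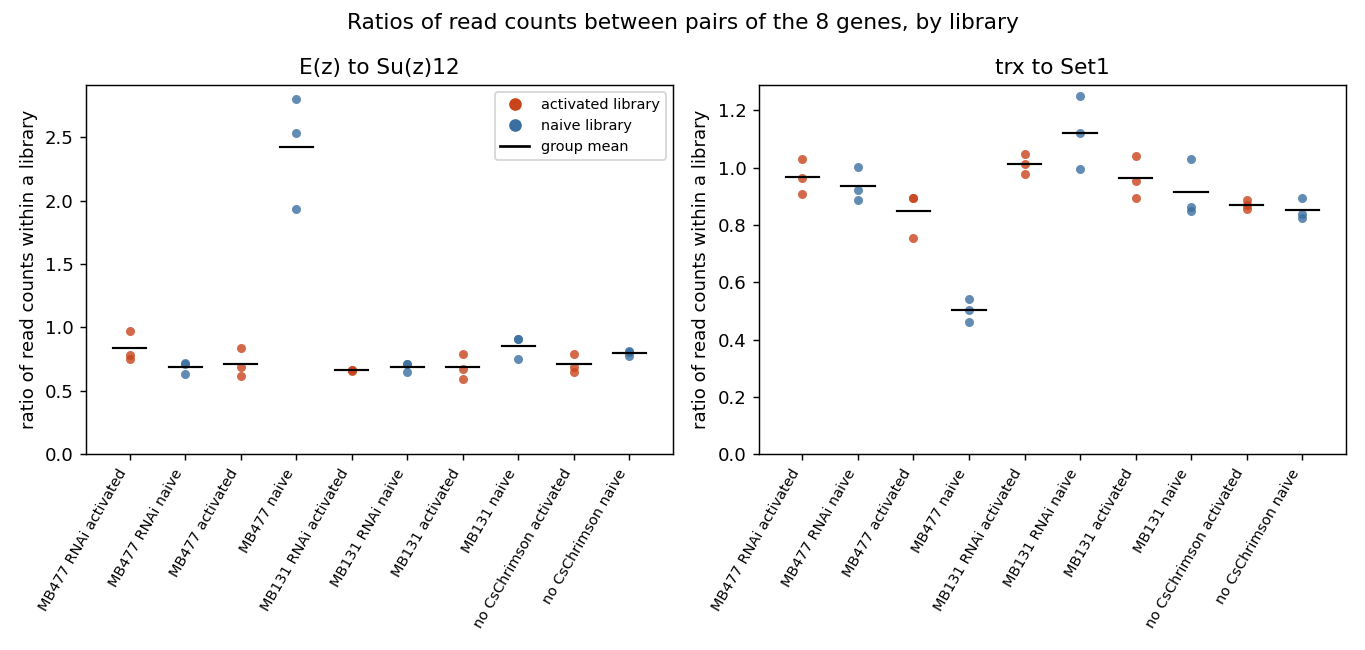
Ratio of read counts of E(z) to Su(z)12 (left) and of trx to Set1 (right) in each library (points, red for activated and blue for naive) with the group mean as a line, over the 10 groups on the horizontal axes. The 3 MB477 naive points are the highest in the left panel, at 1.93 to 2.80, and the lowest in the right panel, at 0.461 to 0.544.

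The third subunit, esc, is a WD40 protein that binds the methylated mark and stimulates the enzyme in flies. It had the fewest counts, so its changes are the least precise, with SE of 0.176 to 0.195 in the activation comparisons. In MB131 it had 10.9, 9.62 and 13.2 CPM in activated and 16.5, 15.2 and 15.7 CPM in naive libraries, without overlap (-0.48, adjusted p = 0.032). That call was lost without any 1 of 5 libraries, namely activated replicate 1 or 2 or naive replicate 1, 2 or 3 (adjusted p of 0.052 to 0.18). In flies without CsChrimson it had 10.0, 8.83 and 10.6 CPM in activated and 14.7, 14.7 and 13.9 CPM in naive libraries (-0.55, adjusted p = 0.017), with the call lost without activated replicate 2 (adjusted p = 0.092) or naive replicate 1 (adjusted p = 0.05). In MB477 the change was -0.37 and missed the threshold (adjusted p = 0.0737). It passed under 2 of 12 alternatives, upper quartile scaling (-0.56, adjusted p = 0.00594) and without MB477 naive replicate 2 (-0.56, adjusted p = 0.013), and ranged from -0.56 to -0.16 over all 12. In both RNAi genotypes the change in esc was 0.08 and did not pass, with 95% intervals of -0.28 to 0.43 in MB131 RNAi and -0.30 to 0.46 in MB477 RNAi.

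Between RNAi and none, esc was lower with RNAi in naive MB131 flies, at 10.7, 10.1 and 9.95 CPM with RNAi and 16.5, 15.2 and 15.7 CPM without (-0.62, SE 0.18, adjusted p = 0.00953). The libraries with RNAi were all below those without. In naive MB477 flies it had 7.58, 10.96 and 6.80 CPM with RNAi and 15.3, 8.93 and 12.1 CPM without. The groups overlapped there although the test passed (-0.53, adjusted p = 0.0114), and the call was lost without MB477 naive replicate 1 (-0.31, adjusted p = 0.21), RNAi naive replicate 1 (adjusted p = 0.06) or RNAi naive replicate 3 (adjusted p = 0.1). In activated flies the RNAi change of esc was -0.06 in MB131 and -0.07 in MB477, neither past the test. The difference between the RNAi change in activated and in naive MB131 flies did not pass either (0.56, 95% interval 0.07 to 1.06, adjusted p = 0.217).

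Pc, the reader of the E(z) mark, did not pass any activation test outside MB477. It had 27.2, 24.7 and 22.2 CPM in activated and 13.7, 13.6 and 10.8 CPM in naive MB477 libraries (0.95, SE 0.13, adjusted p = 4.34e-10). All 27 libraries of the other groups had 20.1 to 29.1 CPM. The naive MB477 level was thus below every other library, and this group made the 3 calls of Pc with changes above 0.8 in size (RNAi in naive MB477 0.87, adjusted p = 7.11e-09; naive MB477 over naive MB131 -0.92, adjusted p = 1.58e-09). Apart from them, Pc was lower in activated MB477 RNAi than in activated MB131 RNAi flies, at 24.1, 20.1 and 22.4 CPM against 27.3, 26.02 and 29.1 CPM (-0.31, adjusted p = 0.0412). These groups did not overlap, but the call was lost without MB131 RNAi activated replicate 1 or 3 or MB477 RNAi activated replicate 2 or 3 (adjusted p of 0.074 to 0.18) and with no filter on low counts (adjusted p = 0.057).

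The lysine 4 methyltransferase trx had 133, 143 and 153 CPM in activated and 78.2, 75.3 and 71.8 CPM in naive MB477 libraries (0.93, SE 0.07, adjusted p = 1.64e-22). The naive libraries were close together and lay below all other 27 libraries, of which the lowest had 133 CPM. In the other 4 genotypes the changes of trx with activation lay between -0.10 and 0.10 and none passed. Between RNAi and none, trx was higher with RNAi in naive MB131 flies, at 169, 198 and 193 CPM with RNAi against 141, 154 and 173 CPM without (0.26, SE 0.06, adjusted p = 0.00126). The highest library without RNAi was above the lowest with it, and the call was lost without MB131 naive replicate 1 (0.19, adjusted p = 0.051). In naive MB477 flies the RNAi change was 0.97 (SE 0.07, adjusted p = 1.28e-23), and in activated flies it was 0.05 in MB131 and 0.01 in MB477, neither past the test.

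MB477 had less trx RNA than MB131 in all 4 matched comparisons, also in the 3 that do not contain the MB477 naive libraries. The change was -0.22 in activated flies (133, 143 and 153 CPM in MB477 against 176, 169 and 157 CPM in MB131, adjusted p = 0.00237), -0.34 in naive RNAi flies (148, 139 and 155 CPM against 169, 198 and 193 CPM, adjusted p = 4.12e-06) and -0.27 in activated RNAi flies (146, 145 and 143 CPM against 173, 165 and 183 CPM, adjusted p = 0.000312). MB477 and MB131 libraries were separated in each of the 3, and these calls held in every alternative run. Markers of neurons also differed between the lines, but not alike in the 3 comparisons. In activated flies 12 of 12 Kenyon cell markers (median log2 change -0.58) and 5 of 6 general neuron markers were past the test as lower in MB477. In activated RNAi flies 10 of 12 and 6 of 6 were lower. In naive RNAi flies 4 Kenyon cell markers were lower and 2 higher, with 3 neuron markers lower and 1 higher. Their part in the line differences of trx and of Set2, given further on, was not tested.

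For ash1, the lysine 36 methyltransferase of the trithorax group, MB477 naive was again the group that stood apart. It had 42.3, 41.7 and 41.2 CPM in activated and 21.9, 25.5 and 22.3 CPM in naive MB477 libraries (0.84, SE 0.10, adjusted p = 1.43e-12), and 40.2 to 55.1 CPM in the 27 libraries other than MB477 naive. None of the 2-group comparisons without MB477 naive libraries passed for ash1, although the test over the other 9 groups together did (adjusted p = 0.0279). Its changes with activation in the other 4 genotypes were -0.15, -0.11, -0.08 and -0.11, in MB131, MB131 RNAi, MB477 RNAi and flies without CsChrimson in that order. These had the same sign, and the 95% interval reached from -0.32 to 0.03 in MB131.

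Set1, which makes most of the trimethyl mark on lysine 4, changed the least. It had 176, 160 and 171 CPM in activated and 155, 138 and 156 CPM in naive MB477 libraries (0.18, SE 0.06, adjusted p = 0.00588). The lowest activated library was only just above the highest naive one. The call was lost without MB477 naive replicate 2 (0.12, adjusted p = 0.098), and with upper quartile scaling the sign turned (-0.01, adjusted p = 0.855). Set1 was lower with RNAi than without in activated MB477 flies, at 141, 150.2 and 158 CPM against 176, 160 and 171 CPM (-0.17, adjusted p = 0.0195), a call lost without MB477 activated replicate 1 or 3 or RNAi activated replicate 1 (adjusted p of 0.064 to 0.12). In activated RNAi flies it was 0.19 lower on the log2 scale in MB477 than in MB131 (-0.19, adjusted p = 0.00469), and that call was lost without MB477 RNAi activated replicate 1 (adjusted p = 0.055). In naive flies it was lower in MB477 than in MB131 (-0.19, adjusted p = 0.00273), a call lost without MB477 naive replicate 2 (adjusted p = 0.06) and with upper quartile scaling (-0.03, adjusted p = 0.71). In MB131 Set1 passed no comparison within the line, with 95% intervals of -0.08 to 0.14 for activation and -0.07 to 0.15 for activation under RNAi.

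The trx to Set1 ratio within a library was 0.504, 0.544 and 0.461 in MB477 naive libraries and 0.756 to 1.25 in the other 27. The 2 lysine 4 methyltransferases thus did not fall by the same factor in that group, whatever the scaling.

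Set2, the enzyme of lysine 36 trimethylation, fell with activation in both RNAi genotypes. In MB131 RNAi it had 51.7, 47.0 and 50.3 CPM in activated and 58.1, 64.6 and 62.7 CPM in naive libraries (-0.31, SE 0.08, adjusted p = 0.00112). In MB477 RNAi it had 38.6, 38.8 and 46.5 CPM in activated and 50.9, 52.2 and 50.5 CPM in naive libraries (-0.30, SE 0.08, adjusted p = 0.00306). Activated libraries were below naive ones throughout, and both calls held in every alternative run. Without RNAi the change was 0.05 in MB131 (95% interval -0.11 to 0.20) and -0.01 in flies without CsChrimson (-0.16 to 0.15), and neither passed. The RNAi change in activated minus that in naive MB131 flies was -0.36 (interaction, SE 0.11, adjusted p = 0.0361), the 1 gene of 8 past that test, where 6.06% of all genes were (3.26% higher and 2.79% lower). That call was lost under 9 of 19 alternatives, each of which left out 1 library (MB131 activated replicate 1, 2 or 3, MB131 naive replicate 1 or 2, MB131 RNAi activated replicate 2 or 3, or MB131 RNAi naive replicate 2 or 3, adjusted p of 0.053 to 0.12).

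In MB477 Set2 had 45.4, 43.8 and 44.0 CPM in activated and 35.0, 34.2 and 38.4 CPM in naive libraries (0.31, SE 0.09, adjusted p = 0.00121), with the call lost under upper quartile scaling (0.12, adjusted p = 0.22). Like trx, Set2 was lower in MB477 than in MB131 in all 4 line comparisons. It was -0.34 in activated flies (45.4, 43.8 and 44.0 CPM in MB477 against 56.3, 56.4 and 56.0 CPM in MB131, adjusted p = 0.000395), -0.27 in naive RNAi flies (adjusted p = 0.00624), -0.26 in activated RNAi flies (adjusted p = 0.0106) and -0.60 in naive flies (adjusted p = 1.05e-09). The activated libraries of each line were close together and those of the 2 lines did not overlap. In activated RNAi flies the call was lost without MB131 RNAi activated replicate 1 (adjusted p = 0.053) or MB477 RNAi activated replicate 1 or 2 (adjusted p = 0.074 and 0.072). In these flies Su(z)12 was also lower in MB477 (-0.19, adjusted p = 0.0488), which was lost without any 1 of 4 libraries (MB131 RNAi activated replicate 1 or 2, MB477 RNAi activated replicate 1 or 2, adjusted p of 0.096 to 0.28) and with DESeq2 (adjusted p = 0.057).

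**Figure D4:**
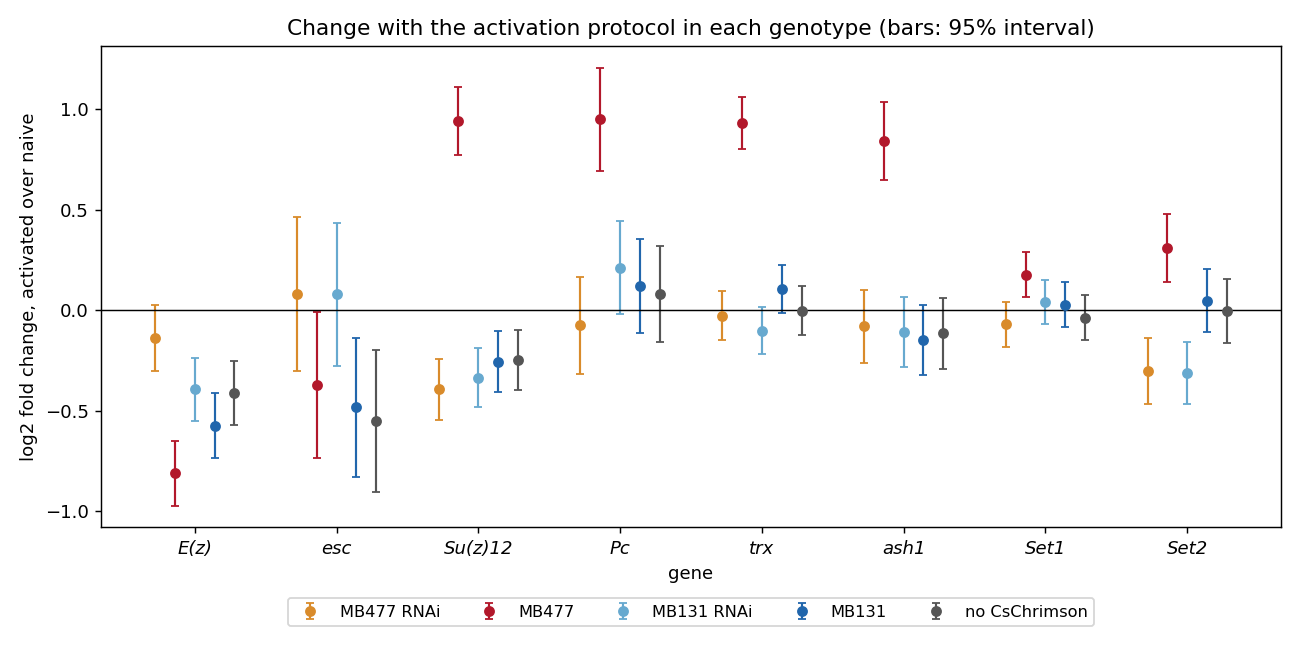
Log2 fold change of activated over naive libraries (vertical axis) for each gene (horizontal axis) in the 5 genotypes (colours), with bars for the 95% interval. E(z) is below 0 in every genotype, with an interval that crosses 0 in MB477 RNAi only, and the MB477 points of Su(z)12, Pc, trx and ash1 lie apart, at 0.84 to 0.95.

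Over all 30 libraries, 5 of the 8 genes had all 3 MB477 naive libraries below the other 27 (Su(z)12, Pc, trx, ash1 and Set2), where 18.1% of all genes tested did, and E(z) had them above. Set1 and esc overlapped. The changes of Su(z)12, Pc, trx and ash1 in the 3 comparisons with MB477 naive libraries were 0.84 to 1.4 in size and kept their direction and call under every alternative run, each MB477 naive library left out in turn among them. Upper quartile scaling moved the median of all genes by -0.19 in activated over naive MB477, -0.17 in RNAi over none in naive MB477 and 0.16 in naive MB477 over naive MB131, and the changes of these 4 genes stayed past the test with it. In the same libraries the summed Kenyon cell, glia and photoreceptor markers were lower than in MB477 RNAi naive and MB131 naive libraries, as given above. The muscle markers were higher and the general neuron markers were not lower. Of the 12 Kenyon cell markers, 9 were past the test as lower in naive MB477 than in naive MB131 flies, with 3 higher. Whether the makeup of the nuclei has a part in these changes was not tested. In activated over naive MB477 flies 7 of the 12 Kenyon cell markers rose and 5 fell, and their sum was 3096 to 3280 CPM in activated against 3203 to 3299 CPM in naive libraries.

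The difference between genotypes was tested directly. The change with activation in MB477 minus that in flies without CsChrimson was 1.19 for Su(z)12, 0.96 for ash1, 0.93 for trx, 0.87 for Pc, 0.31 for Set2, 0.21 for Set1 and -0.40 for E(z), 7 genes past the test where 46.7% of all genes were (26.6% higher and 20.2% lower). The calls of Set1 and Set2 were lost without MB477 naive replicate 2 (adjusted p = 0.12 and 0.063) and with upper quartile scaling, and that of Set1 also without MB477 activated replicate 1, naive replicate 1 of the flies without CsChrimson or their activated replicate 2. In MB131 the same difference was past the test for 0 of 8 genes (edgeR; 0 at an unadjusted p under 0.05 and 0 with DESeq2), against 6.23% of all genes (2.7% higher and 3.53% lower). Its 95% intervals for the 8 genes were narrowest for Set1, at -0.09 to 0.22, and widest for esc, at -0.42 to 0.56. The flies without CsChrimson may differ in line from both, so channel and line cannot be told apart in these differences. The change with activation in MB477 RNAi minus that in MB477 was past the test for 7 of 8 genes, against 51.6% of all genes (24.7% higher and 26.9% lower), with -1.34 for Su(z)12, -1.03 for Pc, -0.96 for trx and -0.92 for ash1. The call of Set1 in it (-0.25, adjusted p = 0.00763) was lost without MB477 naive replicate 2 (adjusted p = 0.053) and with upper quartile scaling (adjusted p = 0.44).

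Other markers moved with activation as well. The summed level of a list of 4 heat shock and 2 mitochondrial genes, kept as a sign of stress and RNA quality, was higher in activated libraries of all 5 genotypes. It was 13413 to 14033 CPM in activated against 3469 to 3643 CPM in naive MB477 RNAi libraries, and 7724 to 7914 CPM in activated against 2334 to 2562 CPM in naive libraries of flies without CsChrimson. Photoreceptor markers were likewise higher in activated libraries of all 5 genotypes. They were at 25365 to 25858 CPM in activated against 14692 to 15025 CPM in naive flies without CsChrimson. In MB477 RNAi they were at 18962 to 19746 CPM in activated against 16405 to 16576 CPM in naive libraries. Fat body markers (6 of 7 listed genes were in the table) were at 43894 to 45760 CPM in activated against 21575 to 22160 CPM in naive MB477 libraries, but at 12543 to 14614 CPM in activated against 13439 to 16514 CPM in naive libraries of flies without CsChrimson. E(z) fell in both of these genotypes. Of the 12 Kenyon cell markers, 0 rose and 8 fell with activation in MB131 (median -0.20), 2 rose and 2 fell in MB131 RNAi, 1 rose and 9 fell in MB477 RNAi (median -0.34), and 6 rose and 1 fell in flies without CsChrimson (median 0.15). Between RNAi and none, 10 of the 12 were higher with RNAi in activated MB477 flies, where E(z) was higher too. The part of the marker changes in the results for the 8 genes was not tested.

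The pattern of each gene over libraries was compared with the others as a description. Over all 30 libraries the log2 levels of Su(z)12 and Pc had a Pearson correlation of 0.71, and those of trx and ash1 of 0.89. Without the 3 MB477 naive libraries these were -0.17 and 0.33, so the pooled values rested on that group. E(z) and Su(z)12 had -0.17 over 30 libraries and 0.71 over the other 27. E(z) and ash1 had 0.65, Su(z)12 and Set2 0.68, and trx and Set2 0.65 over the 27. The libraries share their groups, their activation state and their scaling, so no p is attached.

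Among 7676 genes with a mean of at least 10 CPM, the one closest to E(z) over 30 libraries was E(spl)mbeta-HLH, a Notch-responsive repressor gene, at r of 0.92 (0.90 over the 27 libraries without MB477 naive). For Set2 it was sv, a gene of the Pax family of transcription factors, at 0.96 (0.92), for Su(z)12 CG4393 at 0.97 (0.90), and for trx Plc21C, which encodes a phospholipase C, at 0.97 (0.83). For Pc it was unc-104, the gene of a kinesin motor, at 0.92 (0.58), and for ash1 wnd, the gene of a kinase that acts in axon injury signalling, at 0.96 (0.66). For esc and Set1 no gene came closer than CG5514 at 0.72 (0.72) and CR43425 at 0.79 (0.75). The likeness of Pc and ash1 to their nearest genes dropped most without the MB477 naive libraries, and that of E(z), esc, Set1 and Set2 changed by less than 0.05.

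The 60 other tested genes of Polycomb, trithorax and histone methylation complexes give the setting. With activation 30 of them rose and 14 fell in MB477, 7 rose and 6 fell in MB131, 8 rose and 6 fell in MB131 RNAi, 4 rose and 12 fell in MB477 RNAi, and 1 rose and 6 fell in flies without CsChrimson. In MB477 these were 73.3% of the 60, against 59.5% of all genes tested. They were 21.7% in MB131, 23.3% in MB131 RNAi, 26.7% in MB477 RNAi and 11.7% without CsChrimson, against 24.5%, 26.8%, 28.7% and 21% of all genes in the same order. Their median change was 0.16 in MB477 and 0.58 for the 8 genes, where all genes tested had a median near 0. In MB477 Polycomb genes that rose together with Su(z)12 and Pc included Scm, which links the Polycomb complexes (51.9 CPM in activated and 16.6 CPM in naive libraries, log2 change 1.64), Su(z)2, a subunit of complex 1 (1.16), Asx, a subunit of the deubiquitinase PR-DUB (1.21), and Sfmbt and pho of the DNA-binding PhoRC complex (0.89 and 0.81). Among the genes that fell with E(z) were grh (-1.07) and psq (-0.49), which encode DNA-binding proteins found at Polycomb response elements, and Rbbp5, a shared COMPASS subunit (-0.95). Scm shares 315 exon bases with SpdS on the other strand, Sfmbt 838 with an antisense RNA, Rbbp5 299 with a non-coding RNA and grh 1237 with a roo transposable element and 520 with an antisense RNA.

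**Figure D5:**
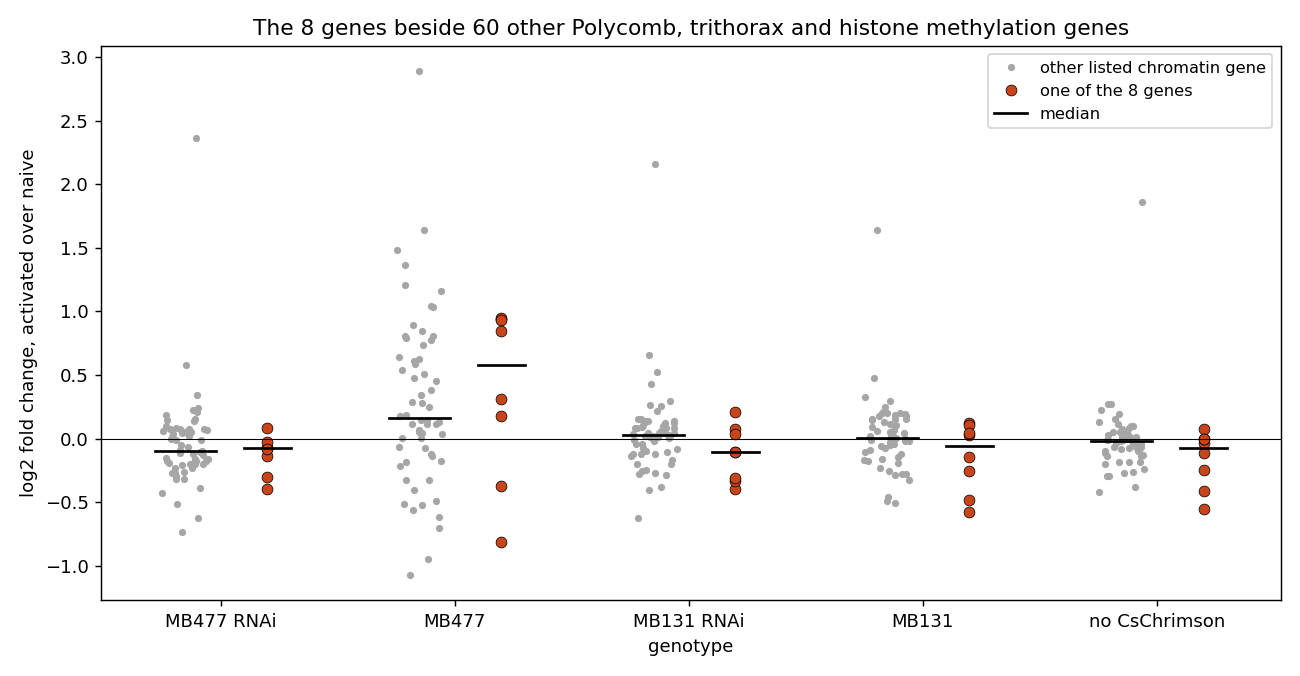
Log2 fold change of activated over naive libraries (vertical axis) in the 5 genotypes (horizontal axis) for the 8 genes (red) and 60 other listed chromatin genes (grey), with a line at the median of each. The grey point at 1.64 or higher in all 5 genotypes is Pa1, and both sets spread most in MB477.

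Other subunits of the same complexes moved differently. In complex 2, Caf1-55, a histone-binding subunit, rose in MB477 with activation (0.78), and escl, the close relative of esc, did so as well (0.81), at 4.45 CPM in activated and 2.54 CPM in naive libraries. Jarid2, an accessory subunit, was lower with RNAi in naive MB477 flies (-0.53) and higher with RNAi in activated ones (0.27), the same pair of directions as E(z). In complex 1, ph-p fell with activation in MB131 (-0.32), MB131 RNAi (-0.26) and MB477 RNAi (-0.21), genotypes in which Pc did not pass. Utx, the demethylase that removes the E(z) mark, fell in flies without CsChrimson (-0.27, adjusted p = 0.00846) and had changes of -0.09 in MB131, -0.17 in MB131 RNAi, 0.00 in MB477 and -0.20 in MB477 RNAi that did not pass.

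On the side of the lysine 4 mark, trr, the gene of the third COMPASS-type methyltransferase, rose in MB477 with activation (0.79) as trx did, and fell in MB477 RNAi (-0.27) where trx did not pass. Pa1, whose product is a subunit of the trr complex, rose with activation in all 5 genotypes, by 2.36 in MB477 RNAi, 2.89 in MB477, 2.16 in MB131 RNAi, 1.64 in MB131 and 1.86 in flies without CsChrimson. It was the largest rise of any listed chromatin gene in each of them. The lysine 4 demethylase gene lid rose with activation in MB131 (0.20) and MB131 RNAi (0.15) and fell in MB477 (-0.13). Kdm2, the gene of a histone demethylase also found with complex 1, rose in MB131 (0.19), MB131 RNAi (0.22) and MB477 (1.03).

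Of 22 Hox and other known Polycomb target genes, 19 were tested. With activation 0 rose and 5 fell in MB131, 0 rose and 4 fell in MB131 RNAi, 0 rose and 6 fell in MB477 RNAi, 1 rose and 2 fell in flies without CsChrimson, and 6 rose and 5 fell in MB477. The shares of all genes that changed were 24.5%, 26.8%, 28.7%, 21% and 59.5% in that order, and nothing particular to the targets is read from these counts. The homeobox gene hth, which also acts in neurons, fell in MB131 (-0.44), MB131 RNAi (-0.32), MB477 (-1.33) and flies without CsChrimson (-0.31). E(z) fell in these genotypes too, and whether the changes of hth and E(z) are linked was not tested. The gene dac, whose product marks Kenyon cells too, was 2.11 higher with RNAi than without in naive MB477 flies, at 161 against 37.4 CPM, and 2.11 lower on the log2 scale in naive MB477 than in naive MB131 flies (log2 fold change -2.11).

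The authors' deposited table of comparisons also holds contrasts that were not refitted here, those of activated flies with and without CsChrimson. For activated MB477 over activated flies without CsChrimson the authors' deposited table gives log2 fold changes of -0.23 for Su(z)12 (adjusted p = 0.0138) and -0.28 for Set2 (adjusted p = 0.00614). No other of the 8 genes is past 0.05 in it, where 4152 of the 11457 genes tested here are. For activated MB131 over the same flies the authors' deposited table has none of the 8 past 0.05, against 1969 of the 11457. For activated over naive MB477 flies the authors' deposited table has 7 of the 8 past 0.05, against 6342 of the 11457. For activated over naive MB131 flies it has 3 of the 8, against 2304 of the 11457.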

How the data were processed

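The deposited table holds read counts per gene for 30 libraries. STAR, HTSeq, DESeq2 and the dm6 genome are named, without versions, per the submitters' processing notes. The sources used here do not give the strand setting or the treatment of reads with several matches. The authors also deposited log2 fold changes with p-values and adjusted p-values. Their log2 column for RNAi in activated MB131 flies runs as none over RNAi, and its values are not used. Of the genes tested here, 1207 were past 0.05 in it, and 0 of these had the sign of RNAi over none in the counts.

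The deposited counts entered edgeR 4.0.16 (R 4.3.3) unchanged. Genes passed filterByExpr (minimum count 10, minimum total 15), libraries were scaled by TMM, and all 30 entered 1 model with a mean per group. Differences were tested in both directions with the quasi-likelihood F test, with Benjamini-Hochberg adjustment over 11457 genes and a threshold of 0.05. The script was tested on simulated data. CPM use TMM-scaled library sizes, log2 CPM a prior count of 2. SE is the absolute log2 fold change over the square root of F, and intervals are ± 1.96 SE. Gene positions and exon lengths come from Ensembl's gene models for that genome. Library totals of 8291599 to 14344348 counts limit esc most.

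The 17 comparisons follow the labels. Genes named beside the 8 are those of 8 chromatin lists and 1 list of targets that are past the test without overlap between groups, up to 4 per list and comparison with the largest change; the activation values of trr, and those of Utx that did not pass, were added after they were seen. The 3 genes nearest in pattern to each were ranked by Pearson r, and the first is given. The 8 genes and all lists were chosen with earlier results of these data known. Alternatives were relative log expression and upper quartile scaling, no filter, DESeq2 1.42.0, only the groups compared, no MB477 naive libraries, a replicate block, and each library left out. No 2 replicates held the same values or agreed within sampling noise. No sequences are printed.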

Additional observations from a re-analysis of the deposited data

Results flagged for a closer look

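Differences between genotypes that passed the test of the difference itself (edgeR, adjusted p under 0.05) were flagged; all are interaction terms on the log2 scale. In MB131, the change of Set2 with activation under RNAi minus that without RNAi was -0.36. In MB477, the change with activation under RNAi minus that without RNAi was 0.67 for E(z), -1.34 for Su(z)12, -1.03 for Pc, -0.96 for trx, -0.92 for ash1, -0.25 for Set1 and -0.61 for Set2. The change with activation in MB477 minus that in flies without CsChrimson was -0.40 for E(z), 1.19 for Su(z)12, 0.87 for Pc, 0.93 for trx, 0.96 for ash1, 0.21 for Set1 and 0.31 for Set2. The MB477 terms all contain the 3 MB477 naive libraries, which stood apart from the other 27, and both families share the MB477 activated and naive libraries.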

How the results depend on the processing

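Of the values for single genes under the alternatives, 1848 kept their side of the threshold, 55 lost a call, 16 gained one and 1 reversed. A value counted as reversed only where its sign turned and it passed in the main fit or the alternative. The 1 reversed was Set1 in activated over naive MB477 flies at -0.0135 with upper quartile scaling (adjusted p = 0.855). Upper quartile scaling moved the median of all genes by -0.19 there. Changes that passed in neither fit could turn in sign among the 1848, such as esc with activation in MB131 RNAi (0.08, lowest alternative -0.03). With 1 library left out at a time, the number of the 8 genes past the test was 2 to 3 for activation in MB131, 3 to 4 in MB131 RNAi, 7 in MB477, 2 in MB477 RNAi and 1 to 3 without CsChrimson. It was 1 to 3 for RNAi in naive MB131, 0 in activated MB131, 6 to 7 in naive MB477 and 0 to 2 in activated MB477. It was 5 to 7 for MB477 over MB131 in naive flies, 2 in activated, 2 in naive RNAi and 2 to 4 in activated RNAi flies. For the interactions it was 0 to 2 for RNAi by activation in MB131, 7 to 8 in MB477, 0 for CsChrimson by activation in MB131 and 5 to 7 in MB477. Calls gained beside those given above were as follows. The gene trx passed with activation in MB131 without naive replicate 3 (0.18, adjusted p = 0.0323) and in MB131 RNAi without RNAi naive replicate 1 (-0.17, adjusted p = 0.0474), and Set2 for RNAi in naive MB131 without naive replicate 3 (0.26). In naive MB477 over naive MB131 flies E(z) passed with upper quartile scaling (0.32, adjusted p = 0.000327) and esc without MB477 naive replicate 1 (-0.60, adjusted p = 0.00846). For RNAi by activation, trx passed in MB131 without MB131 naive replicate 3 (-0.28, adjusted p = 0.0276) or RNAi naive replicate 1 (-0.27, adjusted p = 0.048), and esc in MB477 with upper quartile scaling (0.62) or without MB477 naive replicate 2 (0.64) or RNAi naive replicate 2 (0.67). Samples with the same replicate number had correlations of -0.0892 to 0.140 in their deviations, so no pairing by number was seen. Such values cannot exclude that libraries of the same number were prepared together. The fit with a replicate block called the same number of the 8 genes as the fit without it in every comparison, such as 3 for activation in MB131 and 7 in MB477. Low counts limit esc, and Kdm4B at 2 to 26 counts could not be judged.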
